A study of Homo sapiens with 4 samples.

Results

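Subtelomeric BrdU peaks are described here, which are sites of BrdU accumulation in the outermost 2 Mb of the chromosomes. A BrdU peak was included when its midpoint lay within 2 Mb of the first or last known base of chromosomes 1 to 22 in the hg38 genome build. This rule found 2093 of the 33295 peaks in the deposited list. It used position alone, and none of the measures given below. The remaining 30617 peaks of the same chromosomes, called interior here, were the comparison, and 585 peaks on chromosomes X and Y were not used.

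The peaks came from BrdU-Seq of BJ-hTERT cells, human foreskin fibroblasts immortalized with telomerase. Cells arrested by serum starvation were released, labelled with BrdU, a thymidine analogue built into newly made DNA, and collected at 16, 19, 22, 24 and 28 h in 2 repeats. The authors called peaks separately for every timepoint, with Input DNA as the control, and read them as places where replication forks stall or pause often. The list gives chromosome, start and end only, with no timepoint, repeat, signal or read count, so the depth behind each peak is unknown and no difference between timepoints or repeats can be given.

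Subtelomeres are the chromosome regions next to the telomeric repeats. In human cells they are known to be rich in GC, in genes and in minisatellites, which are tandem arrays of short units whose copy number varies between people. Tandem repeats, G-rich sequence and tightly bound protein are known obstacles for replication forks, and a fork that enters the outermost part of a chromosome cannot be met by a fork from beyond the end.

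To show what these peaks look like, tandem arrays at 5 of the most deeply stacked subtelomeric sites are printed, each as 200 bases of the forward strand of hg38 around the middle of the most deeply stacked stretch. Each window was cut from within its array, and capitals mark the first repeat period of the window, which at 12q joins a pair of related copies of 17 bases.
12q, chr12:131582497-131582696, period of 34 bases: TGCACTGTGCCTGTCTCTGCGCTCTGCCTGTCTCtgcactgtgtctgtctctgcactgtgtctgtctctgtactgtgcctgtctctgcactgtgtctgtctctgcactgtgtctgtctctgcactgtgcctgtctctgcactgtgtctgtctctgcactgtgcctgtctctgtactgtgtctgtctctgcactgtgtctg
4p, chr4:1434656-1434855, period of 46 bases: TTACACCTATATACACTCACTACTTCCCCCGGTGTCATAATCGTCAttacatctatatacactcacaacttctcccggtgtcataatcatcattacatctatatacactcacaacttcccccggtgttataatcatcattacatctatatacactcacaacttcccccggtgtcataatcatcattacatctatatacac
7p, chr7:350341-350540, period of 46 bases: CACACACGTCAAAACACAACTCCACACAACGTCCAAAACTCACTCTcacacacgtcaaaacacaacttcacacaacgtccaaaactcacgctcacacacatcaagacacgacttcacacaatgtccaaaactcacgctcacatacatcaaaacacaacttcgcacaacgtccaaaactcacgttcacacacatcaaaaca
17q, chr17:82972281-82972480, period of 39 bases: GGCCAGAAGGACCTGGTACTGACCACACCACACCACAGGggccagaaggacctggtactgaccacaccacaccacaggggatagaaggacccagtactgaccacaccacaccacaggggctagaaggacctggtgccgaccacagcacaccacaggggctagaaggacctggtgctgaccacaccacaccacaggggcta
21q, chr21:45924253-45924452, period of 66 bases: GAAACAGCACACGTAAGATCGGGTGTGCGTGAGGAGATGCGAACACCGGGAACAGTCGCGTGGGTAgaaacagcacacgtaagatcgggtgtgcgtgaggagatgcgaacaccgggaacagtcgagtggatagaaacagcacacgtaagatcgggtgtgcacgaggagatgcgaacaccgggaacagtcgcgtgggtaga

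The 12q site lay 1684 kb from the last known base, in no protein-coding gene, and joined 9 peaks between 258 and 3605 bp wide. Up to 5 of these peaks covered the same base. Over its 3605 bp, 82.5% of the bases matched the base 17 positions further on, and AT content was 46.7%. The 4p site, 1425 kb from the first known base and also outside protein-coding genes, joined 6 peaks over 1456 bp. Its best match was 97.8%, the smallest shift with that match or nearly that match was 46 bases, and AT content was 62.0%. At 7p, 6 peaks joined over 924 bp outside protein-coding genes, with a match of 73.8% and an AT content of 55.6%. The 17q site joined 6 peaks over 1203 bp in intron 6 of B3GNTL1, a gene of the glycosyltransferase kind, and its AT content was 37.2%. The 21q site joined 5 peaks over 1327 bp in intron 13 of PCBP3, which encodes a poly(rC)-binding protein, with a match of 95.8% and an AT content of 44.2%. The periods of the 4p and 7p arrays were equally long, but the arrays differed in sequence and in base composition.

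Subtelomeric zones held more BrdU peaks per Mb than the rest of the same chromosomes, but the ends differed widely among themselves. The mean density over chromosomes was 24.4 ± 9.89 peaks per Mb of known bases (SD, n = 22 chromosomes) in the terminal 2 Mb and 11.6 ± 2.88 in the interior. It was higher at the ends in 18 of the 22 chromosomes, and the mean difference of 12.8 peaks per Mb passed a two-sided paired permutation test over chromosomes (adjusted p = 4.2e-05, Benjamini-Hochberg over 7 measures). Chromosomes 8, 14, 15 and 18 had the lower value at their ends, but on 14 and 15 this came from their short-arm zones, described below, which lie next to the centromere. Their long-arm ends, at 18.5 and 15 peaks per Mb, stood above interiors of 10.8 and 14.7. Since chromosomes and not samples were the units of this test, its p describes how alike the chromosomes behave in 1 list, and not how experiments vary.

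Among the 44 ends, the number of peaks ranged from 0 to 116 with a median of 53. The long-arm end of chromosome 13 had the most, at 59.5 peaks per Mb, followed by the long arm of 21 at 57.5, the long arm of 12 at 56.5 and the short arm of 11 at 56.5. The 10 ends with the most peaks held 936 of the 2093, or 44.7%. At the other extreme, the short-arm end of chromosome 9 had no peak, the long arm of 5 had 2, the short arm of 18 had 3 and the long arm of 19 had 4. Both ends of a chromosome were often unlike. Chromosome 1 had 45.9 peaks per Mb at its short-arm end and 4.5 at its long-arm end, against 15.2 in its interior. Chromosome 19 had 33 at its short-arm end and 2 at its long-arm end, with 15.8 in its interior. On chromosome 5 the density was 29.5 at the short-arm end and 1 at the long-arm end. On 9 chromosomes, which were 2, 4, 6, 7, 10, 16, 17, 20 and 22, both ends stood above the interior. The short-arm zone of chromosome 22 is, however, not subtelomeric, as described below. Of the 44 ends, 31 exceeded the interior of their own chromosome, and 26 exceeded the interior of every chromosome. Without the short-arm zones described below, 30 of 39 ends exceeded the interior of their own chromosome.

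**Figure D1:**
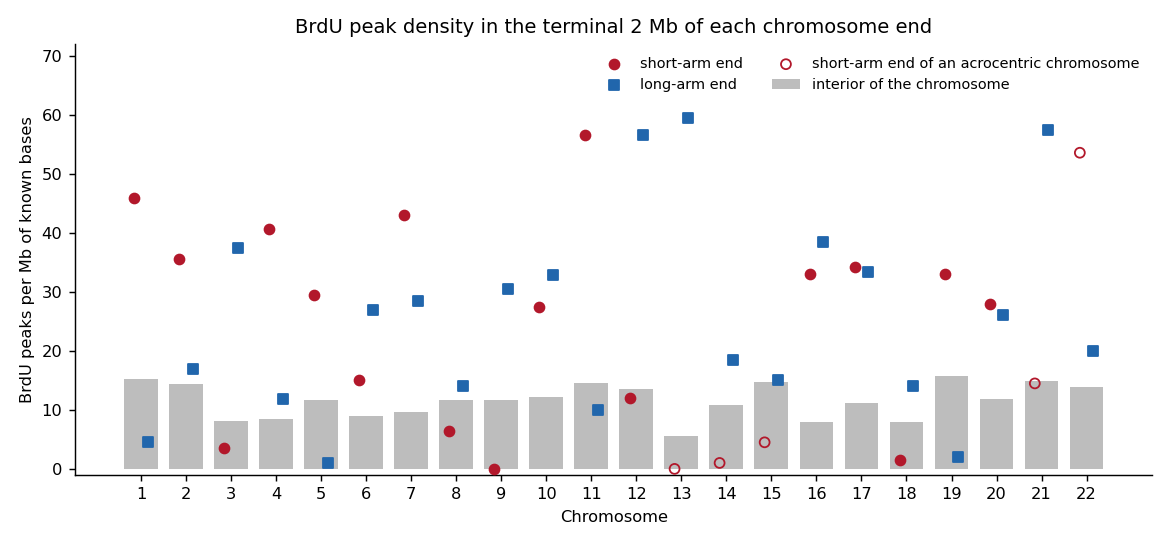
BrdU peaks per Mb of known bases in the terminal 2 Mb of each chromosome end (points; filled circles for short arms, open circles for acrocentric short arms, squares for long arms) and in the interior of the chromosome (grey bars). The ends range from 0 to 59.5 peaks per Mb, while the interiors stay below 16.

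At 5 of the 44 ends the zone is not subtelomeric. The short arms of chromosomes 13, 14, 15, 21 and 22, the acrocentric chromosomes, are largely unknown in hg38, and their first known base lies after 16, 16, 17, 5.01 and 10.5 Mb of unknown sequence. These 5 zones held 107 peaks, 75 of them at 22p and 21 at 21p, none at 13p, 2 at 14p and 9 at 15p. Without them 1986 peaks remained at 39 ends, the density at the ends was 26.6 peaks per Mb, and it was higher than in the interior on 20 of the 22 chromosomes. The values that follow include these zones, and the differences without them are given only where a call changed.

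How much of the higher density remained depended on how peaks were counted. When overlapping or touching peaks were merged into sites, the ends held 12.5 sites per Mb and the interior 8.98, a difference of 3.51 (p = 0.0167, permutation test, 14 of 22 chromosomes higher at the ends). With the tandem-array peaks left out, the ends had 13.6 peaks per Mb and the interior 10.4, a difference of 3.24 that did not pass the permutation test (p = 0.053). With both changes made together, sites outside arrays numbered 7.71 per Mb at the ends and 8.42 in the interior (permutation p = 0.513, 10 of 22 chromosomes higher at the ends). The higher density of subtelomeric peaks was therefore found among stacked peaks and array peaks, and no difference was detectable among merged sites outside arrays. The last 2 of these counts were chosen after the data had been seen. Since the ends are richer in GC than the interior, density was also compared within classes of GC content of 100 kb windows. There the ends held 23.5 peaks per Mb and the interior 16.6, a difference of 6.87 (permutation p = 0.00438, 15 of 22 chromosomes higher at the ends). On chromosome 13 a share of only 0.68 of the terminal sequence fell in classes that its interior also had, the lowest share of all. The terminal density of that chromosome was 8.29 peaks per Mb in this comparison and 29.4 without classes.

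Density changed with distance from the end, and array peaks and other peaks changed differently. In the outermost 250 kb there were 18.4 peaks per Mb, and the highest value, 29.1, was found from 500 to 750 kb. Array peaks alone stood between 11.5 and 13.7 per Mb over the first 1250 kb and between 6.99 and 8.94 from there to 2000 kb. Beyond the zone the fall was not steady. The next bin, from 2000 to 2250 kb, had 6.17 array peaks per Mb, but the bin from 3250 to 3500 kb had 9.94 and, with 26.1 peaks per Mb in all, stood as high as bins within the zone. With the acrocentric short arms left out, the bin from 3250 to 3500 kb had 22.5 peaks per Mb and 8.66 array peaks per Mb. It then stood below every bin of the zone but the outermost. The bin from 9000 to 9250 kb had 1.82 array peaks per Mb. Within the zone, other peaks were fewest in the outermost 250 kb, at 6.86 per Mb, and ranged from 11.4 to 17.5 per Mb between 250 and 2000 kb. The share of arrays among peaks accordingly went from 62.6% in the outermost 250 kb to 35.8% in the last bin of the zone. From the last bin inside the limit of 2 Mb to the first outside it, all peaks went from 25.0 to 17.4 per Mb. Without a single cluster at 11p that crosses the limit, these values were 18.1 and 15.0.

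**Figure D2:**
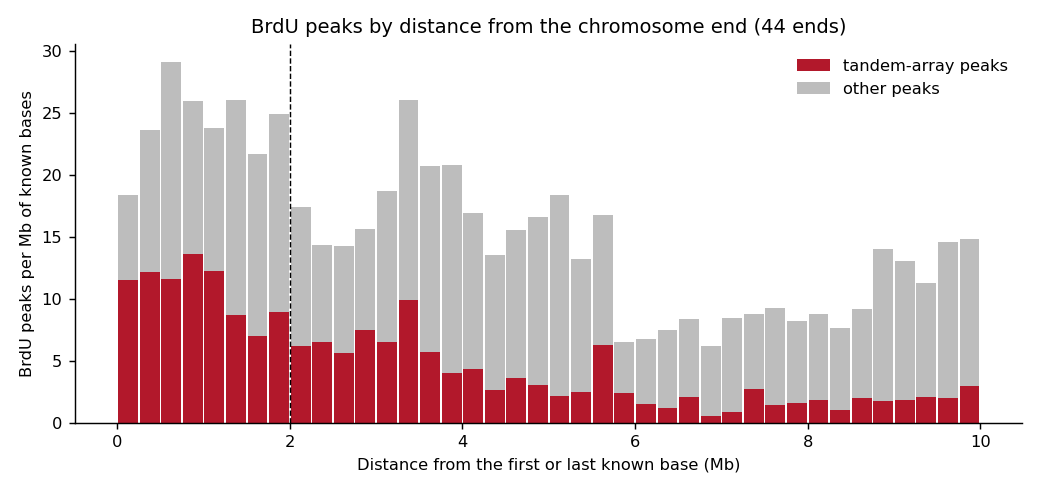
BrdU peaks per Mb of known bases against distance from the first or last known base in bins of 250 kb over 44 ends, with tandem-array peaks in red and other peaks stacked on top in grey; the dashed line is the limit of 2 Mb. Array peaks stand between 6.99 and 13.7 per Mb within 2 Mb and 9.94 in the bin that starts at 3250 kb, and reach 1.82 in the bin that starts at 9 Mb.

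The outermost peak of all lay at 20p, where the interval chr20:60634-60882 was centred 0.758 kb from the first known base. Over 38 ends with a peak, acrocentric short arms left out, the nearest peak lay between 0.758 and 689 kb from the first or last known base, with a median of 118 kb. The peaks at 20p formed a group of 17 overlapping or neighbouring intervals in 6.47 kb, and all 17 were tandem arrays. At the limit of 2 Mb, the innermost included peak was chr11:2059435-2060364, with its midpoint 1999.9 kb from the end, a width of 930 bp and an AT content of 64.2%. The outermost peak left out, chr11:2059857-2060368, had its midpoint at 2000.1 kb, a width of 512 bp and an AT content of 64.8%. Both lay in the same group of stacked peaks, so the limit divided a single group at 11p.

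That group at 11p was the largest cluster of subtelomeric peaks. When sites no more than 10 kb apart were joined, chr11:2041792-2066236 held 100 peaks in 18 sites over 24.4 kb, of which 74 counted as subtelomeric, out of 113 at this end. It overlapped no annotated gene. None of its peaks was a tandem array, and their AT content was 63.7% ± 2.88 (SD over peaks). Of their 31-base words, 97.8% occurred only there in chromosomes 1 to 22, X and Y of hg38. Its most stacked site, chr11:2047045-2050019, joined 19 peaks over 2975 bp. The other large clusters were smaller. The next in number, chr22:10711848-10749858 in the short-arm zone of chromosome 22, held 19 peaks, 13 of them arrays. SHC2 at 19p held 17 peaks in 5.7 kb, 16 of them arrays, and a stretch at 4p, chr4:1427397-1442123, held 15, all of them arrays. At 1p, 12 peaks lay in chr1:629129-634919, a stretch annotated with the mitochondrial pseudogenes MTND1P23, MTND2P28, MTCO1P12, MTCO2P12, MTATP8P1, MTATP6P1 and MTCO3P12, and none of these 12 was an array. In all, 29 clusters of 10 or more peaks held 416 of the 2093 peaks, or 19.9%. These clusters were picked after their values were seen.

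Subtelomeric peaks overlapped one another far more often than interior peaks. Of the 2093 subtelomeric peaks, 1528 shared at least 1 bp with a further peak. Averaged over chromosomes, the share was 72.4% ± 10.1 at the ends and 38.1% ± 7.71 in the interior (SD, n = 22). All 22 chromosomes had the higher share at their ends, and the mean difference of 34.4 percentage points had an adjusted p of 1.75e-05 in the permutation test, whose unadjusted p of 1e-05 is the smallest that 100000 resamples can give. Against interior peaks 2 to 10 Mb from the end, whose share was 54.1%, the difference was smaller, at 18.3 points, and still passed (permutation p = 1e-05). Leaving out array peaks changed little, with 68.4% at the ends and 34.6% in the interior.

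Overlap depth, the largest number of peaks over the same base of a site, gave the same picture. Merging made 1066 subtelomeric sites, of which 565 stood alone, 264 were at depth 2, 137 at depth 3, 68 at depth 4 and 32 at depth 5. A depth of 4 or 5 was reached by 9.38% of the subtelomeric sites (95% exact Clopper-Pearson interval, 7.7 to 11.3%) and by 1.03% of the 24221 interior sites (0.905 to 1.16%). Subtelomeric sites were 4.22% of all autosomal sites when every depth was counted. By depth, they were 2.81% of the autosomal sites at depth 1, 6.38% at depth 2, 19.2% at depth 3, 28.6% at depth 4 and 28.8% at depth 5. These intervals cover counting error only, and those over peaks are too narrow, since overlapping peaks share sequence. No site of the list was deeper than 5. The authors called peaks for each of 5 timepoints, as many as the largest depth, and describe no separate calls for the repeats. The list itself names neither the timepoint nor the repeat of a stacked peak.

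The 32 sites at depth 5 were spread over 17 ends, and 6 of them belonged to the cluster at 11p. Of the 32, 14 were tandem arrays and 22 lay in no protein-coding gene. The remaining 10 lay in introns of 9 genes. Besides B3GNTL1 and PCBP3, these were EXD3, with 2 such sites in intron 17, GMDS, which encodes GDP-mannose dehydratase, ATP11A, a phospholipid flippase, ABR, FAM20C, a kinase of secreted proteins, RAB40B, a small GTPase, and THAP4.

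**Figure D3:**
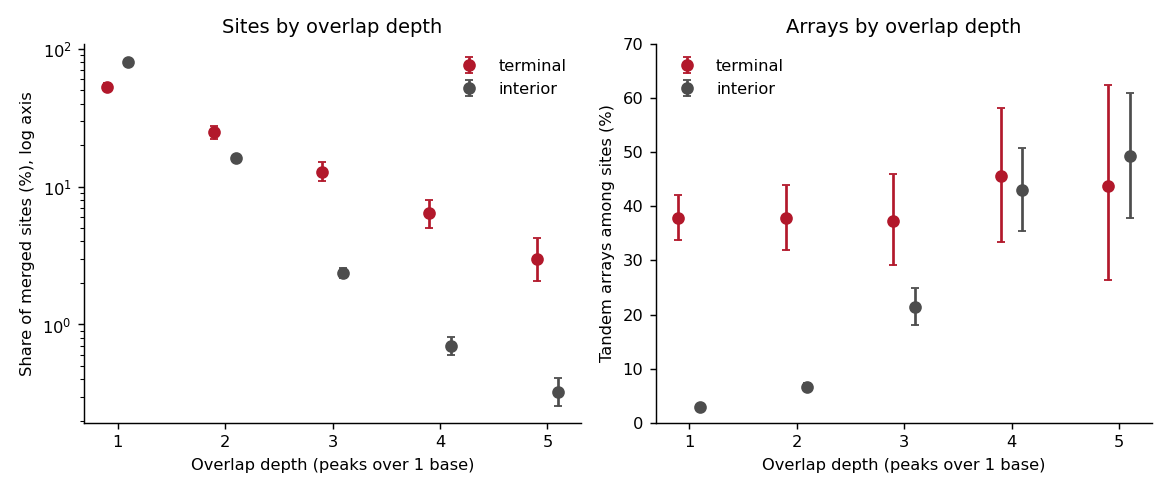
Left, share of merged sites at each overlap depth in the terminal 2 Mb (red) and in the interior (grey), on a log axis. Right, share of tandem arrays among the sites of each depth; bars are 95% exact intervals for counting error, and the terminal values lie between 37.2 and 45.6% at every depth while the interior values go from 2.84 to 49.4%.

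Tandem arrays made up a large part of the subtelomeric peaks. A peak counted as an array when, at some shift between 1 and 120 bp, at least 70% of its hg38 bases were the same as the base 1 shift further on. By this measure 927 of the 2093 subtelomeric peaks were arrays, or 44.3% (95% exact interval, 42.1 to 46.4%), as were 2320 of the interior peaks. Over chromosomes the share was 45.1% ± 11.4 at the ends and 9.66% ± 7.35 in the interior. It was higher at the ends in all 22 chromosomes, with a mean difference of 35.4 points (permutation test, adjusted p = 1.75e-05). The difference was narrowest on chromosome 21, with 35.3% at the ends and 34.0% in the interior, and widest on chromosome 8, with 63.4 and 5.0%. Interior peaks 2 to 10 Mb from the end had a share of 24.6%, which left a difference of 20.5 points (permutation p = 1e-05). At single ends with 20 or more peaks, the share ranged from 19.5% at 11p to 78.3% at 4q, with 71.4% at 8q, 70.1% at 17p and 70% at 6p.

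The link between arrays and depth differed between the zones in its values. In the interior, arrays were 2.84% of the sites at depth 1, 6.58% at depth 2, 21.4% at depth 3, 42.9% at depth 4 and 49.4% at depth 5. At the ends, the share was already 37.9% at depth 1 (95% exact interval, 33.9 to 42.0%), 37.9% at depth 2, 37.2% at depth 3, 45.6% at depth 4 and 43.8% at depth 5 (26.4 to 62.3%). Shallow subtelomeric sites thus held arrays at a share that interior sites showed only at depth 4 and above. The difference between the zones in this link was not tested.

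Subtelomeric arrays had longer units than interior ones. The median unit was 42 bp at the ends and 32 bp in the interior. Units of 21 to 40 bp made up 25.0% of the subtelomeric and 23.1% of the interior array peaks, and units of 41 to 60 bp made up 25.2 and 15.7%. Units of 1 to 6 bp, the microsatellite range, were 9.82% of the subtelomeric array peaks, against 17.0% in the interior. Those of 7 to 20 bp were 13.6 and 19.4%. The AT content of the array peaks, over chromosomes, was 51.1% ± 3.70 at the ends and 53.7% ± 1.53 in the interior (15 of 22 chromosomes lower at the ends, adjusted p = 0.0112, permutation test, over 5 measures added after the data had been seen). Unequal counts of G and C were found in 924 of the 927 subtelomeric array peaks and in 1156 of the 1166 other subtelomeric peaks. In the telomeric repeat the G-rich strand points toward the chromosome end. It did so in 463 of these 924 array peaks, or 50.1%. The share was 52.9% in the other subtelomeric peaks and 49.4% in interior array peaks.

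**Figure D4:**
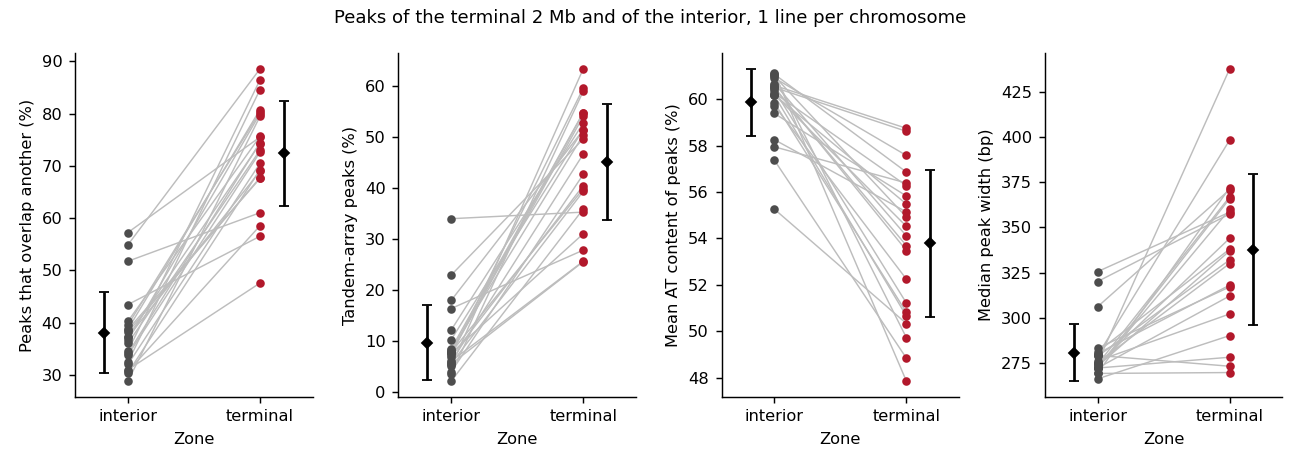
Interior and terminal values of 4 measures, with 1 line for each of 22 chromosomes and black diamonds for the mean with SD: share of peaks that overlap another, share of tandem-array peaks, mean AT content and median width. Overlap and arrays are higher and AT content is lower at the ends on all 22 chromosomes, and width is higher on 21.

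The genome itself is richer near chromosome ends in arrays with units of up to 120 bp. This was measured in consecutive tiles of 280 bp, the median peak width, and arrays of longer units were not counted. Tiles that met the array limit were 2.61% ± 1.03 of the tiles at the ends and 0.298% ± 0.184 in the interior (all 22 chromosomes higher at the ends, adjusted p = 2.5e-05, permutation test). Of the array tiles, 14.1% ± 6.38 at the ends and 10.4% ± 5.69 in the interior overlapped a BrdU peak, a difference of 3.7 points that passed the permutation test (adjusted p = 0.0112, 14 of 22 chromosomes higher). Of all other tiles, 0.633% ± 0.324 at the ends and 0.526% ± 0.136 in the interior overlapped a peak, a difference of 0.108 points that did not pass (adjusted permutation p = 0.186). The larger share of array peaks at the ends thus went with a larger share of arrays in the sequence, while most subtelomeric array tiles, 7031 of 8062 in all, had no peak. At 39 ends without the acrocentric short arms, the number of peaks had a Pearson correlation of 0.508 and a Spearman correlation of 0.558 with the share of array tiles, and of -0.602 and -0.589 with the AT content of the zone. These are descriptions, since ends share their base composition and repeats. The short-arm end of chromosome 8 and the long arm of 7 had the most array tiles, 5.95 and 6.22%, but 13 and 57 peaks. At 20p, 31 of 40 array tiles had a peak, and at 8p 6 of 425.

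**Figure D5:**
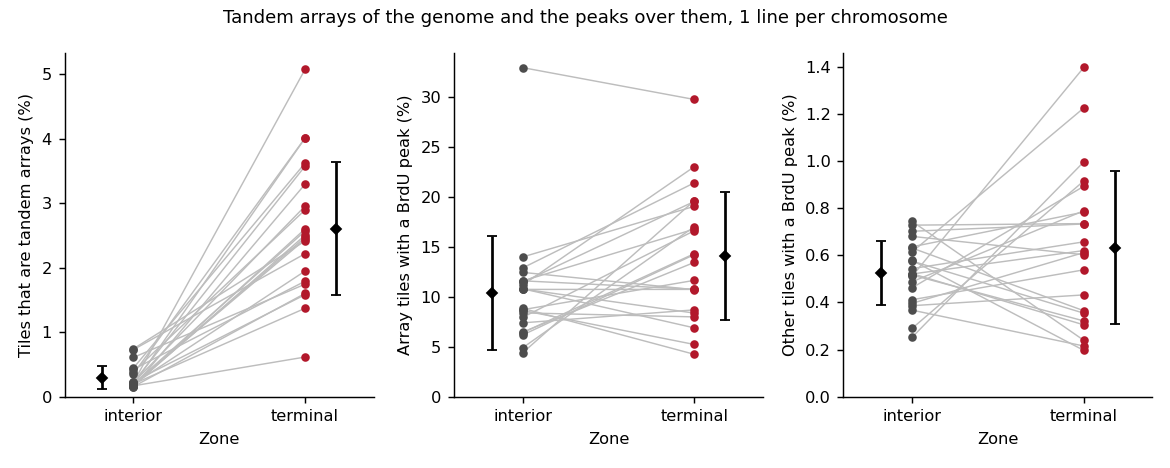
Share of 280 bp tiles that are tandem arrays, share of array tiles with a BrdU peak and share of other tiles with a peak, with 1 line for each of 22 chromosomes and black diamonds for the mean with SD. Array tiles, with units of up to 120 bp, are more frequent at the ends on all 22 chromosomes, while the share of other tiles with a peak is higher at the ends on 14.

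Many subtelomeric peaks lay in sequence that hg38 holds in more than 1 copy. This bears on how reads can be placed, and how the authors treated reads with several possible positions is not given in the sources used here. For each peak, the share of its words of 31 bases that occur in a single place was taken, read on either strand. Only chromosomes 1 to 22, X and Y of hg38 were searched, so copies in mitochondrial DNA or unplaced sequence were not counted. It was 57.7% ± 9.44 at the ends and 83.5% ± 6.37 in the interior (21 of 22 chromosomes lower at the ends, adjusted p = 2.5e-05, permutation test). Subtelomeric array peaks had a mean of 36.2% and other subtelomeric peaks 76.1%, against 52.5 and 87.2% in the interior. Words repeated only within the array lower this value too. In 392 subtelomeric array peaks, or 42.3%, 50% or more of the words also occurred outside the peak's own site, as they did in 22.5% of the interior array peaks. Among the 635 subtelomeric peaks with 90% or more single-copy words, the share of overlapping peaks was 62.3% against 33.1% in the interior (permutation p = 1e-05). The share of arrays was then 12.3% against 2.25%, a difference of 10.1 points in place of 35.4 (permutation p = 0.0008, 17 of 22 chromosomes higher). The part that read placement had in the other differences was not tested.

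Subtelomeric peaks were less AT-rich and wider than interior peaks. Their mean AT content over chromosomes was 53.8% ± 3.17, against 59.9% ± 1.45 in the interior, and it was lower at the ends in all 22 chromosomes (difference of -6.07 points, adjusted p = 1.75e-05, permutation test). The lowest values were 47.9% on chromosome 5 and 48.8% on chromosome 16, and the highest was 58.7% on chromosome 11. Single peaks ranged from 28.0 to 71.1%. With array peaks left out, 55.8 and 60.4% remained. Against interior peaks 2 to 10 Mb from the end, at 57.5%, the difference was -3.73 points (permutation p = 1e-05). More G and C than A and T was found in 684 subtelomeric peaks, or 32.7%, and in 5.36% of the interior peaks. The sequence around them differed in the same direction, since tiles outside arrays had a mean AT content of 52.3% at the ends and 59.3% in the interior. Subtelomeric peaks outside arrays, at 56.1%, were thus still more AT-rich than these tiles, whereas subtelomeric array peaks, at 50.9%, stood further above the 42.6% of subtelomeric array tiles. In the interior, array peaks, at 53.6%, stood below the 56.4% of array tiles, while peaks outside arrays, at 60.7%, stood above their tiles. Median width was 338 ± 41.7 bp at the ends and 281 ± 15.8 bp in the interior, wider in 21 of 22 chromosomes (adjusted permutation p = 1.75e-05). Compared with interior peaks 2 to 10 Mb from the end, the difference in width was 31.1 bp in place of 57.2 (permutation p = 0.00044). The widest subtelomeric peak, at 12q, spanned 3605 bp.

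A pair of short motifs known from chromosome ends and from fork obstacles was searched on both strands. The telomere word TTAGGG stood at least 1 time in 79 subtelomeric peaks, or 3.77%, and in 9.59% of the interior peaks. No subtelomeric peak and 1 interior peak held it 2 times in a row. Tiles of 280 bp held the word in 7.94% of cases at the ends and in 9.61% in the interior. The pattern of 4 runs of 3 or more G with 1 to 7 bases between them, which can fold into a G-quadruplex, was held whole by 38 subtelomeric peaks, or 1.82%, and by 0.866% of the interior peaks. Among all tiles it was held by 7.83% at the ends and 2.77% in the interior, so the share in subtelomeric peaks was below that of the sequence they lie in. Among array peaks at the ends the share was 2.37%, and among array tiles there it was 10.2%. A G run can belong to both patterns, peaks are of unequal width, and these shares are descriptions.

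The shares of peaks that overlapped protein-coding genes or exons did not differ detectably between subtelomeric and interior peaks. How much of the sequence genes and exons cover in each zone was not measured, so these shares have no background beside them. A protein-coding gene was overlapped by 45.7% ± 18.8 of the subtelomeric and 53.1% ± 7.71 of the interior peaks over chromosomes, a difference of -7.43 points (14 of 22 chromosomes lower at the ends, adjusted p = 0.149, permutation test). With terminal zones of 5 Mb the difference was -9.67 points and passed (permutation p = 0.00566). An exon of any annotated gene was overlapped by 5.08% ± 4.62 and 5.12% ± 2.19 (adjusted permutation p = 0.971). In counts, 891 subtelomeric peaks lay in introns of protein-coding genes, 57 touched an exon of such a gene, 259 lay in genes of long noncoding RNAs alone, 39 in other genes alone and 847 in no annotated gene. The peaks in no gene were 40.5% of the subtelomeric and 32.0% of the interior peaks, and 74 of the 847 came from the cluster at 11p. Over chromosomes, 59.0% of the subtelomeric and 67.5% of the interior peaks overlapped any annotated gene. That difference did not pass (permutation p = 0.108, 13 of 22 chromosomes lower at the ends). Arrays were 47.6% of the intronic, 35.1% of the exonic and 43.4% of the intergenic subtelomeric peaks, against 6.53, 8.57 and 10.4% in the interior.

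The terminal zones touched 1275 protein-coding genes, and 246 of them, or 19.3%, had a subtelomeric peak. Of these, 25 had 10 or more. PTPRN2, a phosphatase-like protein of secretory granules at 7q, had the most, with 29 peaks in 18 sites along its 1049 kb, 14 of them arrays. Its rate of 0.277 peaks per 10 kb was not above that of the 7q end as a whole, 28.5 peaks per Mb. DIP2C at 10p had 28 peaks in 9 sites over 415 kb, and 16 were arrays. PCBP3 at 21q had 24 in 10 sites over 299 kb, and 16 were arrays. SHC2, an adaptor of receptor tyrosine kinases, had 17 peaks in 5 sites in only 44.4 kb, and all 5 sites were arrays. By peaks per 10 kb, SHC2 was also the densest gene of 20 kb or more, at 3.82.

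Not all genes with many peaks carried arrays. DLG1, a scaffold protein of cell junctions at 3q, had 17 peaks in 15 sites and no array, and the peaks had an AT content of 62.4% ± 2.93 (SD over peaks). PRKAR1B, a regulatory subunit of protein kinase A at 7p, had 16 peaks, 2 of them arrays. PXDN, the peroxidase that crosslinks collagen IV, had 15 at 2p with 2 arrays. In INPP5A, an inositol polyphosphate phosphatase at 10q, 11 of 15 peaks were arrays. KCNG2, a potassium channel subunit at 18q, had 14 peaks in 4 sites, and 8 of the peaks were arrays. TFDP1, the dimerization partner of the E2F factors that drive entry into S-phase, had 13 peaks in 6 sites at 13q, with 4 arrays and an AT content of 44.2% ± 3.97. None of these 10 genes had a peak over an exon of a protein-coding gene. TFDP1 was tied at 13 peaks with TMEM255B, LRRK1, RPH3AL and VPS53 and was placed before them by its peaks per kb, and of these, LRRK1 had 4 exon peaks and VPS53 had 2.

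Among the other genes dense in peaks, BRD9, a bromodomain subunit of a chromatin remodelling complex at 5p, had 11 peaks in 3 sites, or 2.59 per 10 kb. All 11 also lay in ZDHHC11, which overlaps BRD9 there. These peaks were the most GC-rich of the named genes, with an AT content of 33.6% ± 0.706. POFUT2, an O-fucosyltransferase at 21q, had 6 peaks at 2.5 per 10 kb, with no array and an AT content of 63.4%. ADCK5 at 8q had 5 peaks at 2.48 per 10 kb, all arrays, and CPNE7 at 16q 5 at 2.33 per 10 kb, of which 2 were arrays. The genes with the most peaks covered AT-rich introns without arrays and GC-rich arrays alike.

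Of 22 genes from 5 lists that lay in the zones, 5 had a peak, or 22.7%, a share near the 19.3% of all genes there. Of the mucin genes at 11p, whose exons hold long coding repeats, MUC5AC had 2 peaks in 1 site, and MUC2, MUC5B and MUC6 had none. The MUC5AC peaks touched no exon of a protein-coding gene. None of the 5 alpha globin genes at 16p, HBZ, HBM, HBA1, HBA2 and HBQ1, had a peak. Of 12 symbols listed for telomere maintenance, 2 lay in a terminal zone. RTEL1, a helicase that unwinds telomere loops, had 2 peaks in 1 site at 20q, which also lie in the readthrough gene RTEL1-TNFRSF6B, and TERT, the catalytic subunit of telomerase at 5p, had none. The other 10, PIF1, TINF2, POT1, TERF1, TERF2, TPP1, DKC1, RIF1, ZBTB48 and NOP10, lay outside the zones, and TPP1 is in this annotation the symbol of a lysosomal peptidase and not of the telomere protein of that name. Another list held 9 genes under the heading of terminal deletions and facioscapulohumeral dystrophy, and the tie of each member to these was not checked. Of the 9, PTPRN2 and DIP2C are given above. EHMT1, a histone methyltransferase at 9q, had 4 peaks, 1 of them over an exon, while SHANK3 at 22q, FRG1, FRG2 and DUX4 at 4q, and TCF25 and MC1R at 16q had none. Of 6 genes known for variable tandem repeats, DRD4 and HRAS at 11p had no peak, and INS, IGF2, ACAN and MUC1 lay outside the zones.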

How the data were processed

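The authors aligned BrdU-Seq reads of BJ-hTERT cells to hg38 (Bowtie2 v2.3.4.2). For each of 5 timepoints, MACS2 v2.1.0 compared them with Input DNA (model limits of 8 and 30, p of 1e-05). The deposited list of all peaks holds positions in bp as its only values, without normalization, signal or depth, so the precision of a single peak is unknown. The submitters' processing notes name Bowtie2 2.3.3.1, SAMtools 1.4 and MACS2 2.1.0, and 4 ChIP-Seq samples of RNAPII and PCNA were not analysed here. A start of 0 was taken as the first base of a chromosome, and printed coordinates begin at 1. Genes and exons came from GENCODE version 44, with an overlap of at least 1 bp.

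The list names no sample, so the 22 chromosomes were the units. Terminal and interior values were compared with a two-sided paired permutation test (signs of the within-chromosome differences, 100000 resamples, threshold 0.05, Benjamini-Hochberg over 7 measures). Measures were computed with Python 3.11.15, numpy 2.4.6, pandas 2.3.3, scipy 1.17.1 and numba 0.67.0. The array measure, the test and the interval counts were tested on simulated data, the last against bedtools 2.31.1.

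Named genes were the 10 with the most subtelomeric peaks (ties by peaks per kb), the 5 densest of 20 kb or more, those over sites of depth 5, and 5 lists. Printed sequences were the most stacked arrays, at most 1 per end and none over an exon; a peak outside arrays, also chosen by this rule, is not reported here. The peaks, measures and lists were chosen with earlier results of these data known. Alternatives tried included merged sites, zones of 1 and 5 Mb, other interiors, other limits and leaving out each chromosome.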

Additional observations from a re-analysis of the deposited data

How the results depend on the processing

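Of 213 recomputed values, 195 had the direction of the reported value and stood on the same side of 0.05, among them 141 of the 154 that left out 1 chromosome; the other 13 were differences in exon share, which never passed. Leaving out each chromosome in turn gave differences of 12.1 to 13.7 peaks per Mb for density, 33.5 to 35.6 points for the overlapping share, 34.3 to 37.0 for the array share, -6.29 to -5.73 for AT content, -8.95 to -5.29 for the protein-coding share, -0.697 to 0.297 for the exon share and 52.1 to 60.2 bp for width. The difference in exon share was 2.04 points with zones of 1 Mb and 0.407 without the acrocentric short arms, and that in protein-coding share was -9.67 with zones of 5 Mb, where it passed. In 2 alternatives chosen after the data had been seen, density without array peaks differed by 3.24 peaks per Mb and no longer passed, and the density of merged sites without arrays differed by -0.711, in the opposite direction. The cause was not tested. No paired analysis was possible because neither repeat nor timepoint is named for a peak, and the only pairs tested were the terminal and interior zones of a chromosome. The share of overlapping peaks was not run on merged sites, which cannot overlap. Without read counts, strong and weak peaks counted alike.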
